A study of Mus musculus with 9 samples.

Results

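The 42 genes described here run the cell cycle and DNA replication, and their levels were followed in cultured mouse macrophages. They were chosen by name, as a list of known cell cycle genes, and with earlier results of these data known. All 42 are among the 24607 genes of the deposited table. Each was assigned to a class by its textbook role: 14 S-phase genes, 16 mitotic genes and 12 regulators of G1. All 42 passed the filter on low values. The cells were bone marrow-derived macrophages, which grow from bone marrow progenitors in macrophage colony-stimulating factor (M-CSF, 50 ng/ml). Every group carried the genotype CX3CR1-gfp/+, a green fluorescent protein allele at the fractalkine receptor gene, so no group without that allele was measured. Macrophages were kept alone (monoculture), grown beside dorsal root ganglion (DRG) neurons (co-culture), or given transforming growth factor β (TGF-β) at 0.02 ng/ml. The labelled time is 5 days for each group, and cells were sorted on CD11b and CD64 before RNA was taken. Each group has 3 libraries, and the design text gives 3 mice as their source.

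Cells divide by passing through G1, S, G2 and M. In G1, mitogens such as M-CSF raise D-type cyclins, which bind CDK4 or CDK6 and inactivate the retinoblastoma protein. E2F factors are then freed and switch on the genes for DNA synthesis. The MCM helicase is loaded on replication origins by CDC6 and CDT1, geminin blocks reloading, and PCNA clamps the polymerases to DNA. Mitotic genes follow later, as cyclin B and CDK1 drive entry into mitosis and the anaphase-promoting complex, with its activator CDC20, ends it. Macrophages grown in M-CSF divide in culture, and TGF-β is known in many cell types as a brake on G1.

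The libraries held 46.8 M to 308.8 M reads. The table gives reads divided by a size factor for each library, called normalized counts below, and 1 read was worth 0.346 to 2.27 of them. Of the 10 macrophage genes on the marker list, all were present in all 9 libraries, and together they took 0.964 to 1.55% of reads. The noncoding RNA gene Gm23935 took 3.69 to 10.8% of reads, with the highest shares in monoculture 1 and TGF-β 2. The 42 cell cycle genes together took 0.557 to 0.607% of reads in monoculture and co-culture, and 0.542 to 0.620% with TGF-β. Levels are means ± SD of 3 libraries, and fold changes are on the log2(value + 10) scale with the standard error of a limma fit to all genes. A gene was called at a Benjamini-Hochberg adjusted p under 0.05 over 16328 tested genes, and only called genes are said to have risen or fallen.

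In co-culture the classes moved in different directions. Of the 14 S-phase genes 6 fell and 0 rose, whereas of the 16 mitotic genes 10 rose and 0 fell. In the same limma fit at an unadjusted p under 0.05, 1 S-phase gene was higher and 0 mitotic genes were lower, and edgeR called 0 of either. In the other direction edgeR called 6 S-phase genes lower and 7 mitotic genes higher, beside the 10 of limma. In bulk RNA, more or fewer cells in a phase and more or less RNA per cell cannot be told apart. Among G1 regulators 4 fell and 2 rose, and these held the largest fold changes of the whole list, from -1.40 for Ccnd1 to 3.11 for Ccnd2. In all, 22 of 42 members were called, or 52.4%, against 30.8% of all tested genes. By direction, 12 of 42 rose against 15.9% of all genes, and 10 of 42 fell against 15.0%. The members were chosen with earlier results of these data known, so these shares are a description. The median fold change was -0.11 for S-phase genes, 0.27 for mitotic genes and -0.17 for G1 regulators, beside 0.03 for all tested genes. TGF-β alone changed 3 of the 42 members (7.14%, against 2.52% of all tested genes): 2 rose, beside 1.13% of all genes, and 1 fell, beside 1.39%.

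**Figure D1:**
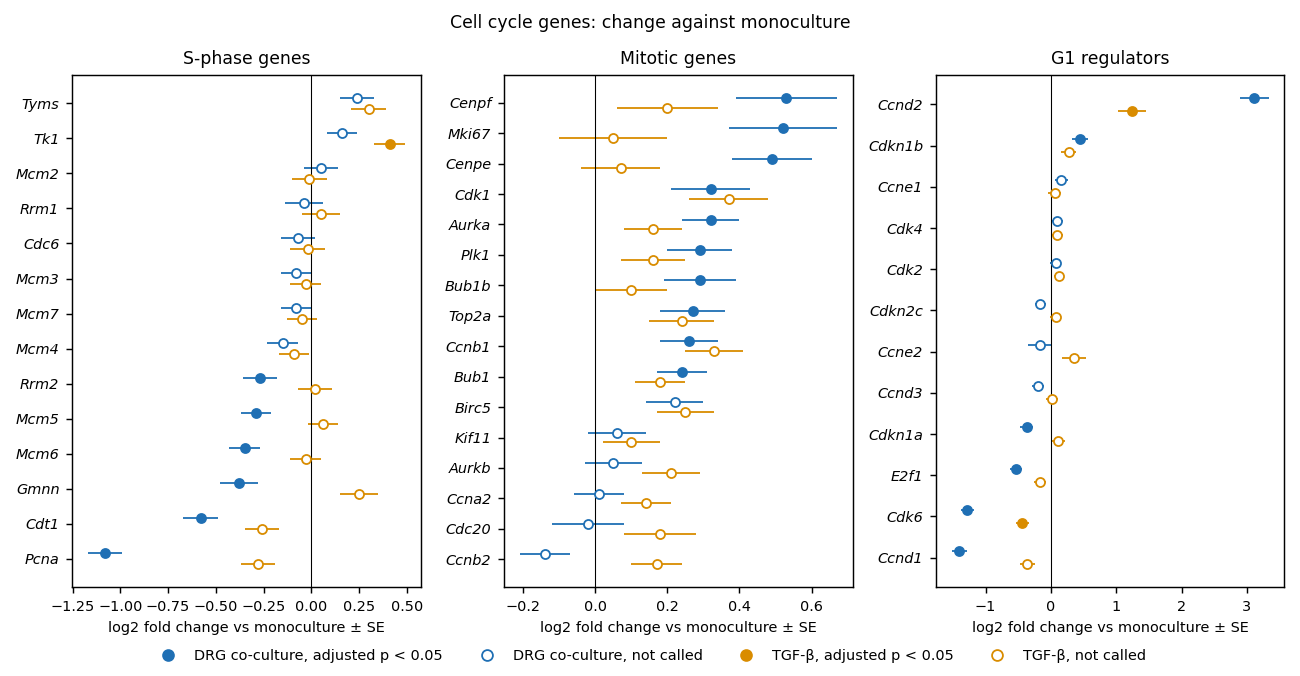
Log2 fold change against monoculture (x axis, with SE) of the 42 cell cycle genes (rows) in DRG co-culture (blue) and with TGF-β (orange), by class. Filled points passed adjusted p 0.05. Called S-phase genes in co-culture lie left of 0 and called mitotic genes right of 0, and the G1 panel has a wider scale, up to 3.11 for Ccnd2.

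S-phase promoters are known for E2F sites and mitotic promoters for the CHR element, so the promoters of the members were read. RefSeq promoter windows (build GRCm38.p6, which is mm10; 250 bases before to 50 after the start) were held for 35 of the 42 genes, not for Mcm4, Gmnn, Ccna2, Aurkb, Ccnd1, Ccnd2 and Ccne2. An E2F-type match was defined as TTCCCGC, or with the inner bases changed TTCGCGC, otherwise TTGCCGC, or lastly TTGGCGC; a CHR-type match (the cell cycle homology region of mitotic genes) as TTTGAA or the variant TTCGAA, and a CCAAT box as CCAAT, each on either strand. The 35 genes have 39 windows, and a gene with several counts once, through a match in any of them. E2F-type matches were found for 8 of 12 S-phase genes (66.7%), 3 of 14 mitotic genes (21.4%) and 2 of 9 G1 regulators (22.2%), beside 19.1% of tested genes with a window. CHR-type matches were found for 11 of 14 mitotic genes (78.6%), 2 of 12 S-phase genes (16.7%) and 0 of 9 G1 regulators, beside 16.4% of tested genes. CCAAT boxes were found for 13 of 14 mitotic genes (92.9%), 8 of 12 S-phase genes (66.7%) and 4 of 9 G1 regulators (44.4%), beside 42.6% of tested genes. The motifs can share bases, and 3 of 28 E2F-type matches in the members overlap a CCAAT box. A match describes the letters and does not show that a factor binds.

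The 200 bases before the start of 7 genes are printed to show this difference between the classes. Capitals mark matches of the 3 motifs, and positions count back from the start. Mcm5, Mcm6 and Rrm1 stand for S phase. In Mcm5 the E2F-type matches begin at -164, -152 and -149. In Mcm6 they begin at -109, -106, -46 and -43, and Rrm1 has a single match at -67. All 3 also hold CCAAT boxes.

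Mcm5, chr8:75109309-75109508, plus strand: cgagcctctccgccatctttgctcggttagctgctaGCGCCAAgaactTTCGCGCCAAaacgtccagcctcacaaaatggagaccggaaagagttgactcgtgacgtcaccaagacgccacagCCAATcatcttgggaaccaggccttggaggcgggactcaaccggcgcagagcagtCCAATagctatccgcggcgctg
Mcm6, chr1:128359706-128359905, minus strand: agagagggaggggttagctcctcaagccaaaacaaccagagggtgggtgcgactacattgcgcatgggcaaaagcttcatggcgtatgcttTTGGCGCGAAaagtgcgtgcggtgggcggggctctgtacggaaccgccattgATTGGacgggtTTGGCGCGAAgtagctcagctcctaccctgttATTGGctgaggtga
Rrm1, chr7:102441495-102441694, plus strand: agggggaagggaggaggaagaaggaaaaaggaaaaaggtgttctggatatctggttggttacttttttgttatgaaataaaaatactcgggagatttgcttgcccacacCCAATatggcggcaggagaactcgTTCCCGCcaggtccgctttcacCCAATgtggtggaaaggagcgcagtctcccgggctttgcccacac

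Mki67, Top2a and Cdk1 stand for mitosis and rose in co-culture, though Top2a and Cdk1 each lost that call in 8 of 16 alternative settings. The CHR-type matches begin at -116 and -98 in Mki67, at -179, -140, -120 and -23 in Top2a, and at -71 and -15 in Cdk1. CCAAT boxes accompany them in all 3, and Mki67 and Cdk1 also hold E2F-type matches, at -67 in Mki67 and at -178 and -130 in Cdk1.

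Mki67, chr7:135716380-135716579, minus strand: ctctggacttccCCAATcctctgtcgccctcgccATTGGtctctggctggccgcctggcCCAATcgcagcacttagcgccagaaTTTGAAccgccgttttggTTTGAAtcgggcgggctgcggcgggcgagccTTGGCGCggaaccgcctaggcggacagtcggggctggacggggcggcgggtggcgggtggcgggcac
Top2a, chr11:99024190-99024389, minus strand: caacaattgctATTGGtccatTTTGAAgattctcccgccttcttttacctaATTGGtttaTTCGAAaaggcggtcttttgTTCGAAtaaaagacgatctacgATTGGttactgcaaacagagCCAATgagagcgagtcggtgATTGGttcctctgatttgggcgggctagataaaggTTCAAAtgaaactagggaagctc
Cdk1, chr10:69352913-69353112, minus strand: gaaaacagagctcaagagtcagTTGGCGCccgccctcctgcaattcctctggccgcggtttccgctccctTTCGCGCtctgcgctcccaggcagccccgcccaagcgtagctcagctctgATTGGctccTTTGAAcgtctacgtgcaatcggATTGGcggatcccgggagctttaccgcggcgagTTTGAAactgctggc

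Cdk6 is the G1 regulator printed, though 4 of 9 G1 regulators hold a CCAAT box and 2 of 9 an E2F-type match. The Cdk6 stretch lies inside the gene as placed by GENCODE M21, which begins at 3341485. This stretch holds no match of the 3 motifs and so no capitals, which says nothing of other sites outside it.

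Cdk6, chr5:3343693-3343892, plus strand: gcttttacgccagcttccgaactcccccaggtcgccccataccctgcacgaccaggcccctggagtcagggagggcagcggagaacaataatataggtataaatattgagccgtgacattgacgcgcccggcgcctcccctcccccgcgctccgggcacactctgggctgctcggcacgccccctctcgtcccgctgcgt

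Pcna, the sliding clamp of the replication fork, was the S-phase gene that changed most. Its normalized counts were 47352, 44122 and 43187 in monoculture 1 to 3, 20607, 20045 and 23073 in co-culture 1 to 3 and 38791, 39202 and 32967 with TGF-β 1 to 3. Every co-culture library lay below all others, and the TGF-β libraries lay between. Pcna (ENSMUSG00000027342, chromosome 2, 132249162 to 132253314, minus strand, mm10) fell by 52.7% in co-culture (log2 fold change -1.08 ± 0.09, adjusted p = 6.42e-07) and did not pass the test with TGF-β (-0.28 ± 0.09, adjusted p = 0.145).

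Of the genes that control loading of the replicative helicase, Cdt1 and Gmnn fell and Cdc6 did not pass. Cdt1, the loading factor, had 7789, 9417 and 7828 normalized counts in monoculture and 5470.3, 5581 and 5606 in co-culture. The co-culture libraries agreed closely with each other and lay below all 6 other libraries, of which those with TGF-β held 6877, 6558 and 7399. Cdt1 fell in co-culture (-0.58 ± 0.09, adjusted p = 1.42e-04). Gmnn, which encodes geminin, the inhibitor of CDT1, had 7972, 6443 and 7301 in monoculture, 5334, 5364 and 5912 in co-culture and 8801, 9506 and 7604 with TGF-β. It fell in co-culture against monoculture (-0.38 ± 0.10, adjusted p = 0.00977) and was lower there than with TGF-β (-0.64 ± 0.10, adjusted p = 3.05e-04). Its estimate with TGF-β against monoculture was above 0 and did not pass (0.25 ± 0.10, adjusted p = 0.239). Cdc6, the other loading factor, had 3904 ± 388 in monoculture and 3719 ± 289.8 in co-culture, a difference within the spread (-0.07 ± 0.09, adjusted p = 0.633).

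The 6 subunits of the MCM2-7 helicase did not all pass the test. Mcm6 fell in co-culture (-0.35 ± 0.08, adjusted p = 0.0039), from 40718, 38312 and 35181 in monoculture to 30417, 28844 and 30226. Mcm5 fell as well (-0.29 ± 0.08, adjusted p = 0.017), from 21146, 20343 and 17875 to 15946, 16216 and 16239. For both, no co-culture library reached the lowest monoculture library. The other subunits gave 0.05 ± 0.09 for Mcm2, -0.08 ± 0.08 for Mcm3, -0.15 ± 0.08 for Mcm4 and -0.08 ± 0.08 for Mcm7, with adjusted p between 0.209 and 0.725. With TGF-β all 6 subunits lay within -0.09 and 0.06 of monoculture on the log2 scale and none was called.

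Enzymes that make DNA precursors split. Rrm2, the regulated subunit of ribonucleotide reductase, fell in co-culture (-0.27 ± 0.09, adjusted p = 0.0432), from 16568, 17284 and 14149 to 13181, 13243 and 13283. Its partner Rrm1 did not pass (-0.04 ± 0.10, adjusted p = 0.779), nor did the thymidylate synthase gene Tyms (0.24 ± 0.09, adjusted p = 0.064). Tk1, thymidine kinase of the salvage route, had 6105, 5700.2 and 6296 in monoculture, 6896, 6670.1 and 6587 in co-culture and 7844, 8583 and 7615 with TGF-β. The 3 groups of Tk1 did not overlap, with TGF-β highest. Tk1 rose with TGF-β (0.41 ± 0.08, adjusted p = 0.0114), did not pass in co-culture (0.16 ± 0.08, adjusted p = 0.153) and was lower in co-culture than with TGF-β (-0.25 ± 0.08, adjusted p = 0.0274). The falls of Pcna, Mcm6, Cdt1 and Gmnn in co-culture kept their calls under all 16 alternative settings. Mcm5 lost its call in 5 of the 16 and Rrm2 in 9; both lost it without monoculture 1, monoculture 2, co-culture 1 or co-culture 2, and in each of these settings 4 S-phase genes were called lower. Tyms was called higher without monoculture 2 or without TGF-β 3 (log2 fold change 0.29 and 0.24). The TGF-β call of Tk1 was lost in 5 of 16 alternatives: without monoculture 2 (0.37, adjusted p = 0.0567), without TGF-β 1 (0.42, adjusted p = 0.0537), without TGF-β 2 (0.36, adjusted p = 0.052), with scaling to total reads (0.35, adjusted p = 0.0614) and without monoculture 1 and TGF-β 2 together (0.37, adjusted p = 0.103). Its call in co-culture against TGF-β was lost in 7 of 16, among them without any 1 of the co-culture libraries, without TGF-β 1 and without TGF-β 2.

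**Figure D2:**
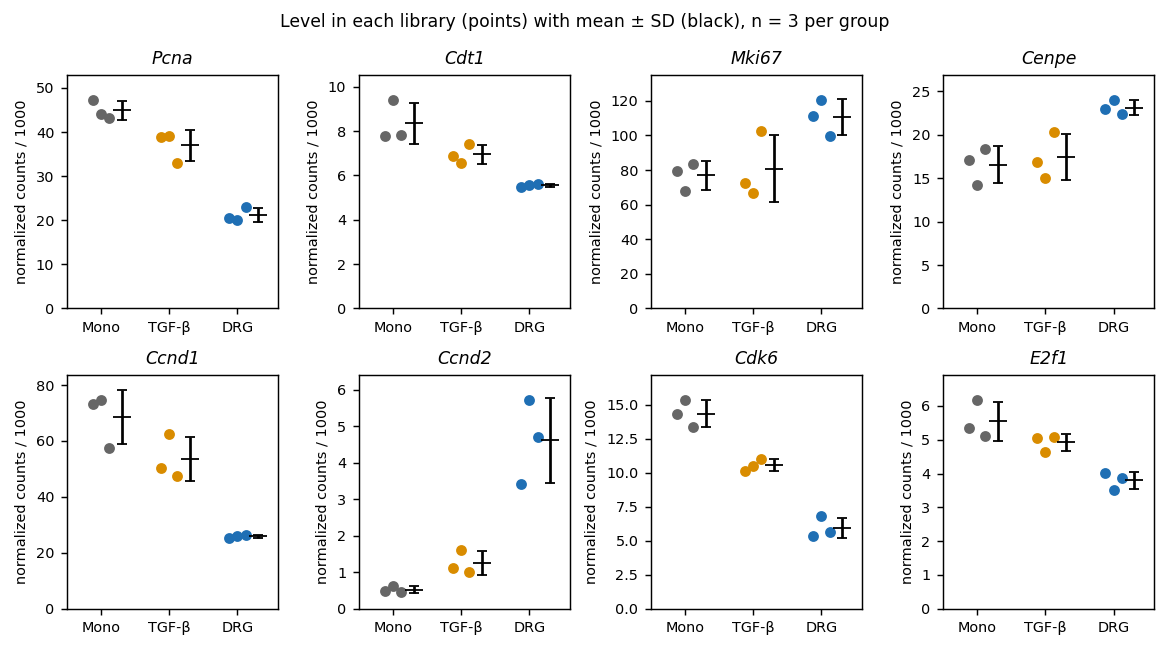
Normalized counts divided by 1000 (y axis, from 0) of 8 members in each library (points) with mean ± SD (black) for monoculture (grey), TGF-β (orange) and DRG co-culture (blue), 3 libraries each. Co-culture libraries are lowest for Pcna, Cdt1, Ccnd1, Cdk6 and E2f1, and highest for Cenpe and Ccnd2; in Mki67 the TGF-β 3 library reaches into the co-culture range.

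Cenpf, Mki67 and Cenpe had the largest increases of the mitotic members in co-culture. Mki67, whose product coats mitotic chromosomes and is the standard marker of dividing cells, had 79539, 67721 and 83506 in monoculture, 111373, 120718 and 99602 in co-culture and 72732, 66504 and 102719 with TGF-β. All co-culture libraries exceeded all monoculture libraries, while TGF-β 3 overlapped co-culture. Mki67 (ENSMUSG00000031004, chromosome 7, 135689784 to 135716361, minus strand, mm10) rose in co-culture by 43.9% (0.52 ± 0.15, adjusted p = 0.0149). Without monoculture 2 or without co-culture 2 it did not pass (log2 fold change 0.44, adjusted p = 0.0742, and 0.46, adjusted p = 0.0659).

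Cenpe, a kinesin motor of the kinetochore, rose from 17093, 14222 and 18323 to 22937, 24039.9 and 22381 (0.49 ± 0.11, adjusted p = 0.00445). Cenpf, a large protein of the outer kinetochore, rose from 13235, 11356 and 15548 to 18643, 20838 and 18164 (0.53 ± 0.14, adjusted p = 0.00957). In both genes the lowest co-culture library was above the highest monoculture library. Cenpe, Cenpf and Aurka were the 3 mitotic genes that kept their calls under all 16 alternatives.

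Kinases of mitotic entry and of the spindle checkpoint gave smaller increases. Aurka, which matures the centrosomes, rose from 4554, 3917 and 3867 to 4925, 5081 and 5325 (0.32 ± 0.08, adjusted p = 0.011). Plk1, the kinase that promotes entry into and exit from mitosis, rose as well (0.29 ± 0.09, adjusted p = 0.0281), and so did the checkpoint genes Bub1 (0.24 ± 0.07, adjusted p = 0.026) and Bub1b (0.29 ± 0.10, adjusted p = 0.0382). Aurkb, the kinase of the chromosomal passenger complex, did not pass (0.05 ± 0.08, adjusted p = 0.675), nor did its partner Birc5 (0.22 ± 0.08, adjusted p = 0.0611) or the spindle kinesin Kif11 (0.06 ± 0.08, adjusted p = 0.646).

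Mitotic cyclins parted within the family. Ccnb1 rose in co-culture from 7768, 6816 and 6907 to 8356, 8329 and 9115 (0.26 ± 0.08, adjusted p = 0.0249), and its kinase Cdk1 rose from 11973, 8853 and 9368 to 12134, 12617 and 12578 (0.32 ± 0.11, adjusted p = 0.0422). Ccnb2, the other B-type cyclin, gave 7664, 7049 and 7484 in monoculture, 6612, 6640.4 and 6829.8 in co-culture and 8217, 8170.4 and 8513 with TGF-β. Its groups did not overlap and ran in the order co-culture, monoculture, TGF-β, yet it passed in co-culture against TGF-β (-0.31 ± 0.07, adjusted p = 0.00513) and not against monoculture (-0.14 ± 0.07, adjusted p = 0.152). Ccna2, the cyclin of S and G2, did not pass (0.01 ± 0.07, adjusted p = 0.924), and neither did Cdc20 (-0.02 ± 0.10, adjusted p = 0.899). Top2a, the topoisomerase that untangles sister chromosomes, rose (0.27 ± 0.09, adjusted p = 0.0434). Top2a, Cdk1 and Bub1b each lost the call in 8 of 16 alternatives, among them edgeR and leaving out any 1 of the co-culture libraries. Of the 10 mitotic calls, 3 were left without monoculture 2, and 4 without monoculture 3 or without any 1 of the 3 co-culture libraries. In each of these settings the median of the 16 genes stayed between 0.22 and 0.28, and no mitotic gene was called lower.

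**Figure D3:**
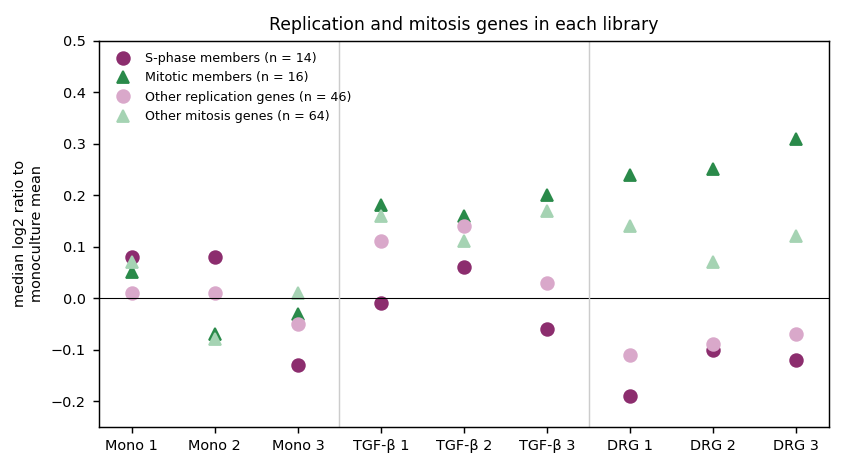
Median log2 ratio to the monoculture mean (y axis) in each of the 9 libraries (x axis) for S-phase members (dark circles), mitotic members (dark triangles) and the wider lists of replication and mitosis genes (pale symbols). In co-culture libraries the mitotic members lie at 0.24 to 0.31 and the S-phase members at -0.19 to -0.10; with TGF-β they lie at 0.16 to 0.20 and -0.06 to 0.06.

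The gap between the classes was seen in every co-culture library. The mitotic median minus the S-phase median was 0.42, 0.35 and 0.44 in co-culture 1 to 3, 0.19, 0.10 and 0.27 with TGF-β 1 to 3, and -0.02, -0.14 and 0.10 in monoculture 1 to 3. Co-culture libraries were thus the highest, the lowest TGF-β library equalled the highest monoculture library at 0.10, and no test was made of this score. In the wider lists of mitosis and replication genes the gap was smaller, at 0.25, 0.16 and 0.19 in co-culture 1 to 3. There it was 0.05, -0.02 and 0.14 with TGF-β 1 to 3, and 0.06, -0.10 and 0.07 in monoculture 1 to 3.

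The fold change in co-culture was ordered much like the length of the gene's exons. Across the 14 S-phase genes Spearman's rho between summed exon length and log2 fold change was 0.82, and across the 16 mitotic genes it was 0.66. The values are descriptions, since genes of the same libraries are not independent replicates. Across all 16194 tested genes with a length rho was 0.03, and in the wider lists of replication and mitosis genes it was 0.16 and 0.12. With TGF-β against monoculture it was 0.37 and -0.13 in the S-phase and mitotic members. In the wider lists it was then -0.52 and -0.16, and -0.14 over all tested genes. In co-culture against TGF-β it was 0.62 in both classes of members. There it was 0.41 and 0.28 in the wider lists and 0.12 over all tested genes. The mitotic genes of largest increase, Cenpf (15.4 kb), Mki67 (10.1 kb) and Cenpe (8.62 kb), are among the longest, and Ccnb2 (1.53 kb) and Cdc20 (1.87 kb) are the shortest. The part of exon length in the result was not tested.

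**Figure D4:**
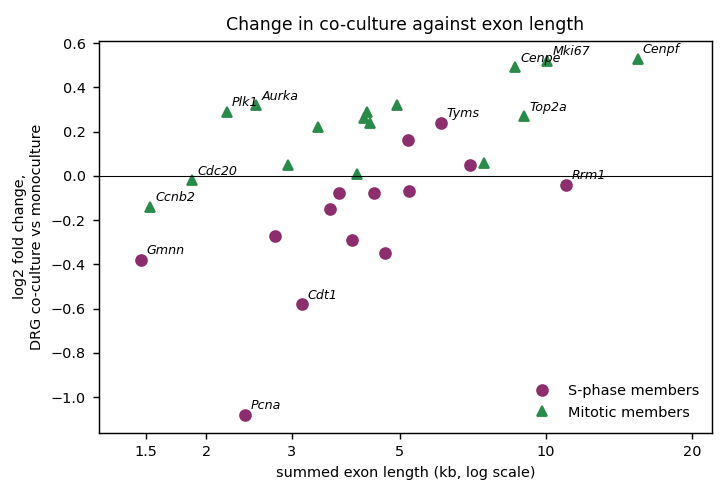
Log2 fold change in co-culture against monoculture (y axis) against summed exon length in kb (x axis, log scale) for the 14 S-phase (circles) and 16 mitotic members (triangles). Longer genes lie higher in both classes, with rho 0.82 and 0.66.

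The D-type cyclins, which link growth signals to the cycle, moved in opposite directions. Ccnd1 had 73398, 74695 and 57616 normalized counts in monoculture, 25136, 26102 and 26399 in co-culture and 50447, 62422 and 47493 with TGF-β. Co-culture libraries were narrowly grouped and far below both other groups, which overlapped each other. Ccnd1 (ENSMUSG00000070348, chromosome 7, 144929931 to 144939925, minus strand, mm10) fell by 62.0% in co-culture (-1.40 ± 0.12, adjusted p = 5.55e-07) and did not pass with TGF-β (-0.36 ± 0.12, adjusted p = 0.145).

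Ccnd2 went the other way. It had 477, 634 and 449 in monoculture, 1129, 1624 and 1004 with TGF-β and 3408, 5727 and 4709.5 in co-culture, and the 3 groups did not overlap. Ccnd2 (ENSMUSG00000000184, chromosome 6, 127125162 to 127152193, minus strand, mm10) rose in co-culture (3.11 ± 0.22, adjusted p = 1.04e-06) and with TGF-β (1.24 ± 0.22, adjusted p = 0.0139), and it was higher in co-culture than with TGF-β (1.87 ± 0.22, adjusted p = 8.67e-05). The call with TGF-β was lost in 4 of 16 alternatives. These were without monoculture 1 (1.18, adjusted p = 0.0524), without monoculture 3 (1.14, adjusted p = 0.0607) and without TGF-β 1 (1.30, adjusted p = 0.0556). It was also lost without monoculture 1 and TGF-β 2 together (0.98, adjusted p = 0.0827). Both co-culture calls of Ccnd2 were kept throughout. Ccnd3, the third family member, did not pass in any comparison (co-culture against monoculture -0.20 ± 0.09, adjusted p = 0.118).

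Per kb of exon, Ccnd1 remained the most abundant of the family in every library. It made up 96.0 to 96.7% of the summed D-type cyclin level per kb in monoculture, 94.4 to 94.8% with TGF-β and 83.8 to 87.0% in co-culture. Ccnd2 went from 0.315 to 0.409% of that sum in monoculture to 0.999 to 1.23% with TGF-β and 5.90 to 9.21% in co-culture. The sum itself was 12747 to 16490.3 per kb in monoculture, 10689 to 13980.1 with TGF-β and 6137 to 6611 in co-culture, so the gain of Ccnd2 was small beside the loss of Ccnd1.

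Their kinase partners parted as well. Cdk6 had 14332, 15353 and 13336 in monoculture, 10112, 10502 and 10997 with TGF-β and 5342, 6805 and 5673 in co-culture, in 3 ranges without overlap. Cdk6 (ENSMUSG00000040274, chromosome 5, 3341485 to 3531008, plus strand, mm10) fell in co-culture (-1.28 ± 0.10, adjusted p = 1.62e-07) and with TGF-β (-0.44 ± 0.10, adjusted p = 0.0241), and was lower in co-culture than with TGF-β (-0.83 ± 0.10, adjusted p = 1.67e-05). Its TGF-β call was lost in 7 of 16 alternatives, among them without monoculture 1 or 2 and without TGF-β 1 or 2 (adjusted p from 0.0507 to 0.146 over the 7). Cdk4, the other kinase of D-type cyclins, did not pass (0.09 ± 0.09, adjusted p = 0.534; TGF-β 0.10 ± 0.09, adjusted p = 0.689). Per kb, Cdk6 was 23.5 to 25.5% of the 2 kinases together in monoculture, 16.7 to 20.2% with TGF-β and 10.0 to 12.4% in co-culture.

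**Figure D5:**
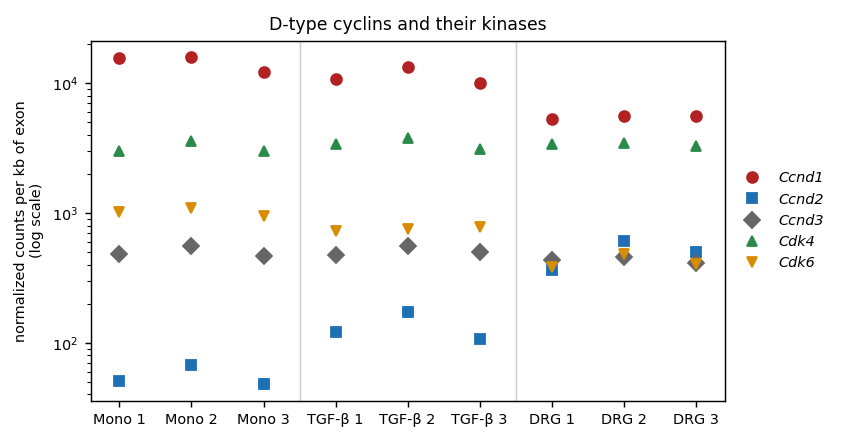
Normalized counts per kb of exon (y axis, log scale) of the D-type cyclins Ccnd1, Ccnd2 and Ccnd3 and the kinases Cdk4 and Cdk6 in each library. From monoculture over TGF-β to co-culture, Ccnd2 lies higher and Cdk6 lower, Ccnd1 is lowest in co-culture (5338 to 5606 per kb), and Cdk4 lies between 3000.5 and 3748 per kb in all 9 libraries.

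Other regulators of the G1-to-S step gave E2f1 as the clearest change. E2f1, the activator of replication genes, had 5340.4, 6179 and 5102 in monoculture, 4021, 3515 and 3859.7 in co-culture and 5045, 4639 and 5079 with TGF-β. It fell in co-culture (-0.54 ± 0.09, adjusted p = 3.66e-04) and was lower there than with TGF-β (-0.37 ± 0.09, adjusted p = 0.00752). The E-type cyclins and their kinase did not pass in co-culture (Ccne1 0.16 ± 0.10, adjusted p = 0.252; Ccne2 -0.17 ± 0.18, adjusted p = 0.531; Cdk2 0.07 ± 0.08, adjusted p = 0.543). With TGF-β, Ccne2 stood at 10835, 10152 and 6193, against 7252, 6453 and 6968 in monoculture, and the third TGF-β library stood apart from the other two. Ccne2 did not pass with all libraries (0.35 ± 0.18, adjusted p = 0.409) and was higher without TGF-β 3 (0.61, adjusted p = 0.0031).

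Inhibitors of cyclin-dependent kinases moved in opposite directions. Cdkn1a, which encodes p21, a p53 target, fell in co-culture from 16672, 14451 and 13398 to 12451, 10657 and 11269 (-0.37 ± 0.10, adjusted p = 0.0103), with TGF-β libraries at 16086, 17289 and 14721. Cdkn1b, which encodes p27, an inhibitor abundant in resting cells, rose from 2903, 2491 and 3487 to 4024, 3684 and 4259 (0.44 ± 0.12, adjusted p = 0.0111). No library of co-culture overlapped monoculture for either gene. Cdkn1a lost its call without monoculture 1 (-0.28, adjusted p = 0.0529) and without co-culture 2 (-0.32, adjusted p = 0.0561), and Cdkn1b without monoculture 2 (0.32, adjusted p = 0.0604). Cdkn2c, an inhibitor of CDK4 and CDK6, did not pass (-0.16 ± 0.08, adjusted p = 0.168).

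With TGF-β alone, 3 of the 42 members were called: Tk1 and Ccnd2 rose and Cdk6 fell. Of the 16 mitotic genes 0 were called by limma or by edgeR, and 7 were higher at an unadjusted p under 0.05; all 16 estimates were above 0, from 0.05 to 0.37 with a median of 0.17, beside -0.01 over all tested genes. The highest were Cdk1 (0.37 ± 0.11, adjusted p = 0.111) and Ccnb1 (0.33 ± 0.08, adjusted p = 0.0515). Cdk1 passed without monoculture 1 (0.50, adjusted p = 0.0274) or without TGF-β 3 (0.45, adjusted p = 0.031), as did Ccnb1 (0.39, adjusted p = 0.0468, and 0.38, adjusted p = 0.0204). The S-phase median was -0.02 and that of G1 regulators 0.09. Both comparisons with monoculture use the same 3 monoculture libraries, so their values are not independent of each other.

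Co-culture was also tested directly against TGF-β. Of the 42 members 15 were called (35.7%, beside 25.3% of all tested genes). In co-culture 12 were lower, beside 11.9% of all genes, and 3 were higher, beside 13.4%. Of the 16 mitotic genes 2 were higher and 1 lower (18.8%). Their estimates were above 0 for 8 and below 0 for 8, with a median of -0.0, so as a class they did not separate co-culture from TGF-β. The 7 S-phase genes among the lower ones were Pcna (-0.80 ± 0.09), Gmnn (-0.64 ± 0.10), Mcm5 (-0.35 ± 0.08), Mcm6 (-0.32 ± 0.08), Cdt1 (-0.32 ± 0.09), Rrm2 (-0.29 ± 0.09) and Tk1 (-0.25 ± 0.08). Pcna, Gmnn and Mcm5 kept this call under all 16 alternatives, and Rrm2 lost it in 8. The S-phase count was 4 without co-culture 1 or without co-culture 2, 5 without co-culture 3, TGF-β 1 or TGF-β 2, and 3 with scaling to total reads. The G1 regulators Ccnd1 (-1.04 ± 0.12, adjusted p = 1.60e-05), Cdk6, Cdkn1a (-0.48 ± 0.10, adjusted p = 0.00219) and E2f1 were lower too, with Ccnb2 from the mitotic class. Higher in co-culture were Ccnd2, Mki67 (0.48 ± 0.15, adjusted p = 0.0298) and Cenpe (0.42 ± 0.11, adjusted p = 0.0146). Scaled to total reads, the count of lower members was 7 rather than 12, and without TGF-β 1, without TGF-β 2 or without co-culture 2 the count of higher members was 1.

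Wider lists of the same pathway gave smaller shares of calls than the members in co-culture against monoculture. Of 46 other replication genes 6 fell and 1 rose (15.2%, median -0.10), and of 64 other mitosis genes 10 rose and 1 fell (17.2%, median 0.12), both below the 30.8% of all tested genes. Among replication genes, Uhrf1, which carries DNA methylation through replication, fell (-0.48 ± 0.08, adjusted p = 5.71e-04), as did the single-strand binding subunit Rpa2 (-0.38 ± 0.08, adjusted p = 0.00169) and the polymerase δ subunit Pold1 (-0.39 ± 0.09, adjusted p = 0.00295). The exception was Dbf4, the activator of the replication kinase CDC7, which rose (0.36 ± 0.08, adjusted p = 0.00245). Among mitosis genes, Cdca2 (0.55 ± 0.08, adjusted p = 1.38e-04), the centromeric histone Cenpa (0.57 ± 0.11, adjusted p = 0.00124) and the kinesins Kif14 (0.44 ± 0.08, adjusted p = 0.00102) and Kif20b (0.35 ± 0.08, adjusted p = 0.0061) rose. The gene that fell was the transcription factor Mybl2 (-0.28 ± 0.09, adjusted p = 0.0208). The kinetochore genes Ndc80 (-0.09 ± 0.08, adjusted p = 0.419) and Spc24 (-0.12 ± 0.09, adjusted p = 0.357) did not pass. Nuf2, Spc25, Cenph, Cenpi, Cenpk, Cenpm and Cenpn did not pass either, with estimates from -0.08 to 0.08.

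Against TGF-β, 14 of the 46 replication genes were lower in co-culture and 0 higher (30.4%, beside 25.3% of all tested genes). Rpa2 (-0.44 ± 0.08, adjusted p = 7.34e-04), the polymerase δ subunits Pold1 (-0.39 ± 0.09) and Pold2 (-0.42 ± 0.09) and the histone chaperone Asf1b (-0.39 ± 0.08) had the smallest p. Of the 64 mitosis genes 7 were lower and 1 higher (12.5%, below the 25.3% of all tested genes, median -0.08). The kinetochore genes Ndc80 (-0.30 ± 0.08) and Spc24 (-0.31 ± 0.09) and Mybl2 (-0.28 ± 0.09) were lower, and Cdca2 was higher (0.34 ± 0.08). With TGF-β against monoculture, 0 of 46 replication genes were called in the limma fit, 0 by edgeR, and 3 were higher at an unadjusted p under 0.05. The 4 of smallest p were Asf1b (0.24 ± 0.08, adjusted p = 0.164), Rfc5 (0.27 ± 0.09), Rpa3 (0.45 ± 0.16) and Cdc45 (0.18 ± 0.08). The mitosis genes Nusap1 (0.38 ± 0.09, adjusted p = 0.0458) and Cks1b (0.39 ± 0.10, adjusted p = 0.0473) rose, though edgeR called 0 of the 64, and 63 of 64 mitosis genes had estimates above 0 (median 0.15). Next in order of p were Cdca3 (0.33 ± 0.09, adjusted p = 0.0607) and Incenp (0.25 ± 0.08, adjusted p = 0.138), which did not pass.

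Of 4 further CDK inhibitors 3 fell in co-culture, and Cdkn2d did not pass (-0.15 ± 0.10, adjusted p = 0.311). Cdkn1c, which encodes p57, had 627, 736 and 709.8 normalized counts in monoculture, 365, 330.0 and 379.5 with TGF-β and 18, 38.3 and 64.5 in co-culture, where it fell (-3.91 ± 0.28, adjusted p = 1.04e-07). The INK4 locus genes Cdkn2a and Cdkn2b were the other 2. Cdkn2b, which encodes p15, went from 521, 717 and 576 to 135, 161 and 199 (-1.82 ± 0.21, adjusted p = 9.94e-06), and Cdkn2a, whose locus encodes both p16 and p19ARF and is counted here as a single gene, from 651, 417 and 490.5 to 148, 129.7 and 114 (-1.90 ± 0.19, adjusted p = 2.64e-06). For all 3 every co-culture library lay below every library of both other groups. With TGF-β none of the 3 passed (Cdkn1c -0.93 ± 0.28, adjusted p = 0.109; Cdkn2b -0.65 ± 0.21, adjusted p = 0.132; Cdkn2a -0.14 ± 0.19, adjusted p = 0.814). Of the 31 tested genes of G1 control in this list, 5 fell and 3 rose in co-culture (25.8%, below the 30.8% of all tested genes), among the latter the atypical cyclin Ccng2 (0.70 ± 0.12, adjusted p = 3.10e-04). Against TGF-β, E2f6, a repressor among the E2F factors, was lower in co-culture (-0.46 ± 0.08, adjusted p = 9.96e-04). With TGF-β 0 of the 31 were called by limma and 0 by edgeR, with 5 higher and 2 lower at an unadjusted p under 0.05, among them Skp2, which marks p27 for destruction (0.25 ± 0.08, adjusted p = 0.151).

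Targets of p53 and stress kinases of the Polo family went both ways. Of 25 tested genes 8 rose and 4 fell in co-culture (48.0%, median 0.22). Of all tested genes 30.8% were called, 15.9% higher and 15.0% lower. Plk2 fell from 33698, 32017 and 33504 to 3402, 2918 and 4203 in co-culture (-3.25 ± 0.12, adjusted p = 3.33e-10), and it fell with TGF-β, to 13437, 14936 and 17192 (-1.13 ± 0.12, adjusted p = 2.50e-04). Plk3 rose in co-culture from 889.8, 1359 and 1032 to 6713, 6464 and 4988 (2.47 ± 0.15, adjusted p = 4.83e-08) and did not pass with TGF-β (0.49 ± 0.15, adjusted p = 0.123). The 3 groups of Plk2 and of Plk3 did not overlap. Mdm2, the ubiquitin ligase that restrains p53, fell in co-culture (-1.04 ± 0.09, adjusted p = 5.07e-07), as did the stress gene Gadd45b (-1.97 ± 0.15, adjusted p = 1.96e-07), which also fell with TGF-β (-0.78 ± 0.15, adjusted p = 0.0131). Phlda3 (0.48 ± 0.14, adjusted p = 0.103) and Pmaip1 (-0.40 ± 0.12, adjusted p = 0.109) came next with TGF-β and did not pass.

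Markers of other cells in the DRG culture were measured beside these results. Of the 14 tested fibroblast markers 14 rose in co-culture, where 15.9% of all tested genes rose and 15.0% fell. Some of them, such as Mfap5 and Thy1, stood at 0 in every other library and passed the filter only through co-culture. For such genes a rise was the only possible change, so the count cannot be weighed against the share of all genes. The 16 in the table summed to 44.2 to 133.5 normalized counts in monoculture, 26.3 to 131.1 with TGF-β and 7189 to 10524 in co-culture, at most 0.00954% of reads. In monoculture 4 of them stood at 0 in all 3 libraries (Lum, Mfap5, Pdgfra, Thy1) and with TGF-β 5 did. Of the 13 markers of Schwann cells and satellite glia, 9 rose and 2 fell in co-culture, while their summed level was 9575 to 10973 in monoculture, 9270.1 to 10121.7 with TGF-β and 8363 to 8886 in co-culture, and Mbp and Cnp, which were high in monoculture too, made up most of it. The glial genes Ngfr and Foxd3 were at 0 in every monoculture and TGF-β library and reached 261, 209 and 233 and 32.6, 18 and 33.9 in co-culture. Ngfr and Foxd3 too passed the filter only through co-culture. Of the 17 sensory neuron markers in the table, 5 were tested and 1 rose (Tubb3, named after its value was seen, 1.68 ± 0.41, adjusted p = 0.00562) and 1 fell. The neuronal sum was 8771 to 10077 in monoculture, 8111 to 10758 with TGF-β and 615 to 898 in co-culture. The gene that fell, Uchl1, made up most of it, at 8659, 9986 and 8777 in monoculture and 549, 431 and 562 in co-culture. These sums stand beside the co-culture values of Ccnd2 (3408 to 5727) and of every other gene above, and the part of such cells in the results was not tested. With TGF-β the fibroblast sum lay in or below the monoculture range.

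Some members share exon sequence with a neighbouring gene on the other strand, and the use of strand in counting is not stated. This holds for 13 of the 42 genes. Ccnd1 shares 1100 bases with Oraov1, whose mean level was 1277 in monoculture and 966 in co-culture, far below that of Ccnd1. Ccnd2 shares 368 bases with 9330179D12Rik, at 9.09 in monoculture and 38.0 in co-culture. Tspan31, which shares 641 bases with Cdk4, was at 6532 in monoculture and 5948 in co-culture. If strand was not used, reads from such shared bases cannot be told apart.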

How the data were processed

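RNA was sequenced from sorted macrophages in 9 libraries, 3 each from monoculture, DRG co-culture and TGF-β. The deposited signal values are gene reads divided by 1 size factor for each library: in every column all values (100%) were whole multiples of the smallest within 0.05. STAR 2.7.3, bcl2fastq 2.20, R 3.6.1, DESeq2 1.24.0 and the build mm10 are named in the submitters' processing notes without a role. How genes were counted, on which strand and with which annotation, is not given in the sources used here.

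Tests covered 16328 of 24607 genes, those reaching 10 in 3 or more libraries, with limma 3.58.1 (trend and robust empirical Bayes, R 4.3.3) on log2(value + 10). All 9 libraries entered 1 fit with group as the only factor, and p-values were adjusted by Benjamini-Hochberg over all tested genes in each of 3 comparisons. Alternatives were a pseudocount of 1, no filter, 2 other scalings, edgeR 4.0.16 on the recovered reads, the replicate number as a block, leaving out each library, and, chosen after seeing the data, leaving out monoculture 1 and TGF-β 2 together. Recovered reads tested with edgeR gave 2403 higher and 2508 lower genes in co-culture against monoculture, beside 2590 and 2443 with limma. Exon lengths and positions are from GENCODE M21 (mm10). The named genes are the 42 members and, from each of the 4 wider lists, the 4 genes of smallest p in each comparison, together with the marker lists. Cdkn2d and the kinetochore genes beyond these were named to complete their families. Lists were written from general knowledge, and the members and lists were chosen with earlier results of these data known.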

Additional observations from a re-analysis of the deposited data

How the results depend on the processing

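Of 40 calls among the members over the 3 comparisons, 18 were kept under all 16 alternatives; none of the 40 changed direction in any. In co-culture against monoculture 12 members were called higher, and leaving out 1 library gave 5 to 14; 10 were called lower, and leaving out 1 library gave 7 to 10. With TGF-β 2 were called higher and leaving out 1 library gave 0 to 6; 1 was called lower and leaving out 1 library gave 0 to 1. With TGF-β, scaling to total reads gave 1 higher, no filter on low values gave 0 lower, and leaving out monoculture 1 and TGF-β 2 together gave 0 higher and 0 lower. In co-culture against TGF-β 3 were called higher, and leaving out 1 library gave 1 to 4; leaving out monoculture 1 and TGF-β 2 together gave 1. There 12 were called lower, leaving out 1 library gave 9 to 13, and scaling to total reads gave 7. Total-read scaling moved the median of all genes from 0.01 to 0.10 in that comparison, where all genes called higher and lower went from 2189 and 1939 to 2324 and 1270. Over all genes, TGF-β called 185 higher and 227 lower; leaving out 1 library gave 92 to 496 and 73 to 443, and leaving out monoculture 1 and TGF-β 2 gave 98 and 57.

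Same-numbered libraries did not deviate together in every pair (correlations of deviations from -0.15 to 0.37 over 9 pairs), so the numbers were not taken to pair the samples. The highest correlation of all was of a same-numbered pair, monoculture 3 with TGF-β 3 (0.37), while monoculture 1 correlated best with TGF-β 2 (0.25). Whether the same mice served each group is not stated in the sources used here. With the replicate number as a block, 11 members were called higher and 10 lower in co-culture against monoculture, 2 and 1 with TGF-β, and 3 and 12 in co-culture against TGF-β. Depth did not limit detection of the members, whose lowest value was 449 normalized counts.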
